A study of Mus musculus with 4 samples.

Results

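The 10 genes described here belong to the Hippo pathway or are genes that its transcription factors are known to activate. They are the TEAD factors Tead1, Tead2, Tead3 and Tead4, the coactivators Yap1 and Wwtr1, and the feedback and target genes Lats2, Amotl2, Ctgf and Cyr61. The genes were taken by name, by matching the Ensembl identifiers of the count files to symbols, and each was read in all 4 samples. All 10 were found among 37620 gene identifiers, and all 10 were among the 14263 genes that reached 1 CPM, the usual unit of counts scaled to library size, in one or more samples.

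The study asked how signaling inputs hold mouse embryonic stem cells (mESCs) in pluripotency or let them leave it. Poly-A RNA was sequenced from 3 cultures of mESCs of the R1 line and from 1 culture of F4 trophoblast stem cells (TSCs), with 1 sample per condition. The mESC cultures were collected on day 2 in serum-containing medium without feeder cells, and all 3 contained 3 µM CHIR99021, which inhibits GSK3, together with 1 µM PD0325901, which inhibits MEK. The culture with these inhibitors and no LIF was 2i−L, 2iJ added 2 µM of a JAK inhibitor, and 2iJ+B−A added to 2iJ both 10 ng/ml BMP4 and 10 µM of the ALK5 inhibitor. The TSC label names the line and day 2 but gives no medium, so cell type, line and medium cannot be told apart in any comparison with TSCs.

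In the Hippo pathway, the kinases Stk3 and Stk4 activate Lats1 and Lats2, which phosphorylate the coactivators YAP (Yap1) and TAZ (Wwtr1) and keep them out of the nucleus. When the kinases are off, YAP and TAZ enter the nucleus and bind the TEAD factors, which hold the DNA contact, and genes such as Ctgf, Cyr61, Lats2 and Amotl2 are switched on. In the early mouse embryo the outer cells have nuclear YAP, and Tead4 with its coactivators is needed there for Cdx2 and for the trophectoderm, the layer from which TSCs are derived. Phosphorylation and the place of a protein in the cell are not read by RNA counts.

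Counts on genes came to between 33913984 and 36964392 read pairs per sample. At that depth 3 counts, used as the smallest detectable signal, were worth between 0.0799 and 0.0902 CPM, and the lowest of the 40 values of the 10 genes was 115 counts. The labelled cell types were checked on marker genes. The 7 pluripotent cell markers summed to between 2666 and 4931 CPM in the mESC cultures and to 388 CPM in TSCs. Esrrb (248 CPM) and Zfp42 (123 CPM) made up most of the TSC sum. The others were at 7.15 CPM or less there, with Pou5f1 at 1.34 and Nanog at 2.65 CPM. The 7 trophoblast stem cell markers summed to 345, 400, 1297 and 3153 CPM in 2i−L, 2iJ, 2iJ+B−A and TSCs, the same order as Tead3. Among them, Elf5 stood at 298 CPM in TSCs and at 0.133 CPM or less in the mESC cultures. From 2iJ to 2iJ+B−A, 4 were at least 2-fold higher and 1 lower, where 5.81% and 3.17% of all genes tested were. The lower one was Eomes, which fell from 10.7 to 2.74 CPM, away from its TSC level of 179 CPM. The keratin genes Krt8 and Krt18 made up most of the sum in 2iJ+B−A (553 and 521 CPM) and in TSCs (884 and 1395 CPM). Esx1 was higher in 2iJ+B−A (72.8 CPM) than in TSCs (12.6 CPM). The 6 primitive endoderm markers summed to 76.7, 104, 259 and 1146 CPM in 2i−L, 2iJ, 2iJ+B−A and TSCs. Col4a1 alone made up most of each sum, at 68.6, 87.8, 228 and 1099 CPM. Of the others, Gata4 was highest in TSCs (23.5 CPM) and Sox17 was lowest there (0.142 CPM). The 6 differentiated trophoblast markers summed to 3.13, 8.24, 51.1 and 19.4 CPM, and 3 of them were at 0 in every mESC culture. Gcm1 and Ascl2 made up most of the sum in 2iJ+B−A (28.0 and 22.7 CPM). Both were lower in TSCs, at 0.399 and 13.3 CPM. Syna (3.67 CPM) and Prl3d1 (1.57 CPM) were highest in TSCs. The part of these marker lists in the results below was not tested. In bulk RNA, fewer cells with a transcript and less of it per cell cannot be told apart. With 1 sample per group no difference below has a replicate check, and every 95% interval covers counting error only.

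TEAD factors recognise the motif GGAATG, or CATTCC on the other strand, and the promoters of the 10 genes were searched for it on both strands. RefSeq start sites on GRCm38.p6 were available for 7 of the 10 genes (Tead2, Tead3, Yap1, Wwtr1, Lats2, Amotl2 and Cyr61, which RefSeq lists as Ccn1). Each window ran from 250 bases before to 50 bases after a start site. The motif was in at least 1 window of 6 of the 7 genes, with Tead2 the one without a match, against 16.6% of all 27025 genes in the table. By window, 8 of 11 held it, against 14.7% of 32851. Windows of one gene overlap in part, and a match is a match of letters only. The stretches below belong to the 5 genes that held the motif and differed 2-fold or more in one of the comparisons, with the motif in capitals, read 5′ to 3′ on the strand of the gene. For Cyr61 (chr3:145649986-145650235, minus strand), Amotl2 (chr9:102717554-102717803, plus strand) and Wwtr1 (chr3:57575911-57576160, minus strand) they are the 250 bases that end at the start site. The first base of the motif lay 103, 65 and 136 bases before that site. For Tead3 (chr17:28350700-28350729, minus strand) and Lats2 (chr14:57746102-57746131, minus strand) only 30 bases around the motif are given, and the Tead3 stretch holds it as a pair. The Tead3 pair starts 123 and 114 bases before the second start site of the gene, but lies after the first. The Lats2 motif starts 4 bases after its start site.
Cyr61: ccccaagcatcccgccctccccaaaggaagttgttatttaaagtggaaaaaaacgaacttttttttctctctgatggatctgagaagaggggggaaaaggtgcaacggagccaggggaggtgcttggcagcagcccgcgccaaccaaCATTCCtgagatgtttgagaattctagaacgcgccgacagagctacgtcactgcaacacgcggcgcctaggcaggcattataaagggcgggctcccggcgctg
Amotl2: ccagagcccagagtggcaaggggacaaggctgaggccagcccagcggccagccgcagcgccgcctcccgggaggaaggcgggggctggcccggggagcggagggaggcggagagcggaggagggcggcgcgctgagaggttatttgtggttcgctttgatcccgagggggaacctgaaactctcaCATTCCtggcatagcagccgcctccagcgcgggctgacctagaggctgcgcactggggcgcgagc
Wwtr1: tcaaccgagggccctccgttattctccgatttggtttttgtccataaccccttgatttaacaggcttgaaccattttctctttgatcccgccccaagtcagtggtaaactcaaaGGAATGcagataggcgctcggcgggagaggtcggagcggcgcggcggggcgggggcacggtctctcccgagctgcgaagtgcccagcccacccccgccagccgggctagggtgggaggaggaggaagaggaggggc
Tead3: cgggctCATTCCgtaCATTCCggccatccc
Lats2: cgtgacgcccgtGGAATGccaacaatgtag

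The TEAD factors were read first. They share a DNA-binding domain and differ in where they are expressed, and Tead4 is the one required for trophectoderm. Tead4 (chr6:128174306-128250841 on NCBIM37, minus strand) stood at 12.2, 8.88, 19.5 and 97.2 CPM in 2i−L, 2iJ, 2iJ+B−A and TSCs. The order was 2iJ, 2i−L, 2iJ+B−A, TSCs, and no neighbouring pair had a counting interval of its ratio that included 0. With BMP4 and the ALK5 inhibitor its log2 ratio over 2iJ was 1.09 (95% interval 0.91 to 1.28), a 2.20-fold higher level. TSCs exceeded 2iJ by 3.38 on the log2 scale (3.22 to 3.54), or 10.9-fold, and exceeded 2iJ+B−A by 2.29. The level in 2iJ was below that in 2i−L, with a log2 ratio of -0.44 (-0.65 to -0.23).

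Tead3 (chr17:28468616-28487750, minus strand), a TEAD factor known from the placenta, was read at 5.20, 6.23, 12.2 and 56.9 CPM in 2i−L, 2iJ, 2iJ+B−A and TSCs. The values of 2i−L and 2iJ differed by less than counting error allows to be told apart (log2 ratio 0.24, -0.03 to 0.51), and the other neighbours in this order were distinct. The 2iJ+B−A level was 0.92 above 2iJ on the log2 scale (0.70 to 1.15), and the TSC level was 3.09 above 2iJ (2.90 to 3.29), or 9.14-fold. Tead3 and Tead4 were thus both highest in TSCs and both intermediate in 2iJ+B−A.

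Tead1 (chr7:119822832-120050319, plus strand) and Tead2 (chr7:52471123-52489005, plus strand), the broadly expressed members, varied little. Tead1 was at 140, 142 and 139 CPM in 2i−L, 2iJ and 2iJ+B−A, values that were not distinct by counting, and at 198 CPM in TSCs. Its log2 ratio of TSCs to 2iJ was 0.48 (0.42 to 0.53). Tead2 was at 146, 129, 129 and 149 CPM in the same order, so that 2i−L with TSCs and 2iJ with 2iJ+B−A formed pairs that were not distinct by counting. Its ratio of TSCs to 2iJ was 0.21 (0.15 to 0.27). Of the merged exon bases of Tead1 in GENCODE vM1, 34.2% are also covered on the same strand by a second gene model named Tead1. The annotation release behind the counts is not given. If it held both models, read pairs that fit both were not counted, and the Tead1 level is a lower value than its transcripts gave.

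Compared per kilobase of merged exon, the make-up of the TEAD transcripts differed between the cultures. Their summed level was 48.3, 44.1 and 48.3 CPM per kb in 2i−L, 2iJ and 2iJ+B−A, and 89.6 CPM per kb in TSCs. Tead2 made up 64.7%, 62.5%, 57.3% and 35.7% of the sum in the 4 samples in that order, and was the largest share in every sample. Tead4 made up 7.05%, 5.60%, 11.3% and 30.2%. Tead3 and Tead4 together accounted for 9.50% (8.79% to 10.2%) of the sum in 2i−L and 8.81% (8.11% to 9.54%) in 2iJ. Their joint share was 17.0% (16.2% to 17.9%) in 2iJ+B−A and 44.6% (43.8% to 45.4%) in TSCs. The joint share was thus lower in 2iJ and 2i−L than in 2iJ+B−A and highest in TSCs. With the Tead1 length cut to the bases that no second model covers, an alternative chosen after the data were seen, the shares were 8.38%, 7.66%, 15.0% and 40.5%, in the same order.

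**Figure D1:**
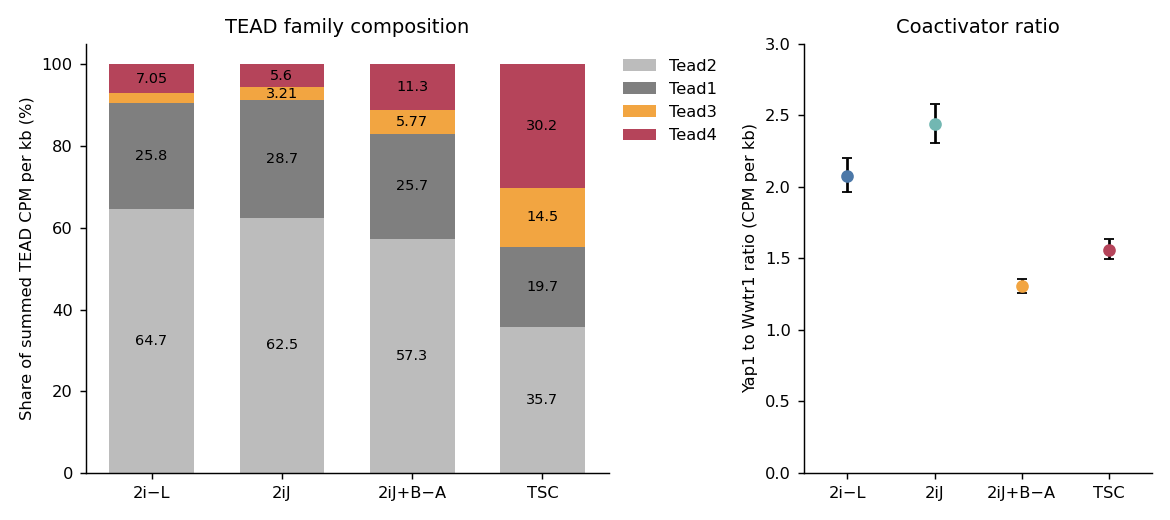
Left, stacked bars give each TEAD gene's share (%) of the summed TEAD level in CPM per kb of merged exon in each sample. Right, points give the ratio of Yap1 to Wwtr1 in CPM per kb, with 95% counting intervals. The Tead4 segment is 5.60% in 2iJ and 30.2% in TSCs, and the ratio is lowest in 2iJ+B−A at 1.31. There was 1 sample per condition.

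The coactivators came next. Yap1 (chr9:7931999-8004596, minus strand), which encodes YAP, was nearly level, at 187, 201, 231 and 221 CPM in 2i−L, 2iJ, 2iJ+B−A and TSCs. Its log2 ratios were between -0.07 and 0.20 in the 4 comparisons, and no interval included 0. Wwtr1 (chr3:57259571-57379832, minus strand), which encodes TAZ, was at 46.5, 42.5, 91.5 and 72.9 CPM. The 2 cultures without BMP4 lay below 2iJ+B−A and TSCs, and the highest value was that of 2iJ+B−A. Over 2iJ, the log2 ratio was 1.10 in 2iJ+B−A (1.01 to 1.19), or 2.15-fold, and 0.77 in TSCs (0.68 to 0.86). TSCs were below 2iJ+B−A, with a log2 ratio of -0.33 (-0.40 to -0.25).

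Per kilobase, Yap1 exceeded Wwtr1 in every sample. The ratio was 2.08 (1.97 to 2.20) for 2i−L and 2.44 (2.31 to 2.58) for 2iJ. It was 1.31 (1.26 to 1.36) for 2iJ+B−A and 1.56 (1.49 to 1.63) for TSCs. The intervals of the 4 samples did not overlap. Yap1 has a merged exon length of 9257 bases but a longest transcript of 5282 bases, and with the longest transcripts the ratios were 3.58, 4.20, 2.25 and 2.69, in the same order of samples.

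Lats2 (chr14:58260914-58377225, minus strand) encodes a kinase that restrains YAP and TAZ and is itself a YAP target, and so takes part in a feedback loop. It was at 3.46, 8.15, 18.6 and 41.2 CPM from 2i−L through 2iJ and 2iJ+B−A to TSCs, an order in which no neighbouring interval included 0. The log2 ratio was 1.13 for 2iJ against 2i−L (0.84 to 1.42), 1.14 for 2iJ+B−A against 2iJ (0.95 to 1.34) and 1.12 for TSCs against 2iJ+B−A (1.00 to 1.25). TSCs exceeded 2iJ by 2.27 (2.09 to 2.45), or 5.05-fold. Of its exon bases, 4.55% are shared on the same strand with Xpo4.

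Amotl2 (chr9:102619002-102635748, plus strand) encodes an angiomotin, a junctional protein that holds YAP in the cytoplasm and is also a YAP target. It took the same order as Lats2, with 49.0, 87.7, 141 and 332 CPM. Its log2 ratios were 0.83 for 2iJ against 2i−L (0.75 to 0.92), 0.68 for 2iJ+B−A against 2iJ (0.62 to 0.75), 1.92 for TSCs against 2iJ (1.86 to 1.97) and 1.23 for TSCs against 2iJ+B−A (1.19 to 1.28).

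The secreted matricellular proteins CTGF and CYR61 (also named CCN2 and CCN1) are the usual readouts of YAP activity, and their genes had different orders of levels. Cyr61 (chr3:145309935-145312949, minus strand) was at 12.0, 25.9, 63.5 and 66.0 CPM in 2i−L, 2iJ, 2iJ+B−A and TSCs, and the last pair was not distinct (log2 ratio 0.06, -0.03 to 0.14). Its log2 ratio was 1.08 for 2iJ against 2i−L (0.92 to 1.25), 1.28 for 2iJ+B−A against 2iJ (1.17 to 1.39) and 1.33 for TSCs against 2iJ (1.22 to 1.44). Ctgf (chr10:24315248-24318489, plus strand) was at 30.7, 63.5, 53.8 and 3.85 CPM, and so was highest in 2iJ and lowest in TSCs. Its log2 ratio was 1.04 for 2iJ against 2i−L (0.93 to 1.14) and -0.24 for 2iJ+B−A against 2iJ (-0.32 to -0.15). In TSCs it was 16.5-fold lower than in 2iJ (13.9 to 19.8) and 14.0-fold lower than in 2iJ+B−A (11.7 to 16.8). The TSC value rests on 135 counts, against 1022 to 2181 in the mESC cultures. A gene on the opposite strand, Gm15270, overlaps 22.9% of the Ctgf exon bases, and the counts used here are those of the Ctgf strand alone.

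Fibroblast markers were read beside Ctgf. The 10 markers summed to 48.9, 43.0, 31.3 and 8.60 CPM in 2i−L, 2iJ, 2iJ+B−A and TSCs. In TSCs Col1a2 and Dcn were at 0 counts, and 4 of the 10 markers were at or under 3 counts. Of the 7 that passed the filter, 5 were lower by 2-fold or more in TSCs against 2iJ, where 17.6% of all genes tested were, and 0 were higher, where 19.4% were. Twist2, which was under the filter, was higher in TSCs (0.741 CPM) than in 2iJ (0.0582 CPM). In 2iJ against 2i−L, Ctgf was 2.07-fold higher. Of the same 7 markers, 1 was higher there (Lox) and 1 lower (Pdgfrb), where 1.23% and 0.918% of all genes tested were. Lox reached 1 CPM in 2iJ alone. The part of the fibroblast markers in the Ctgf level was not tested.

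**Figure D2:**
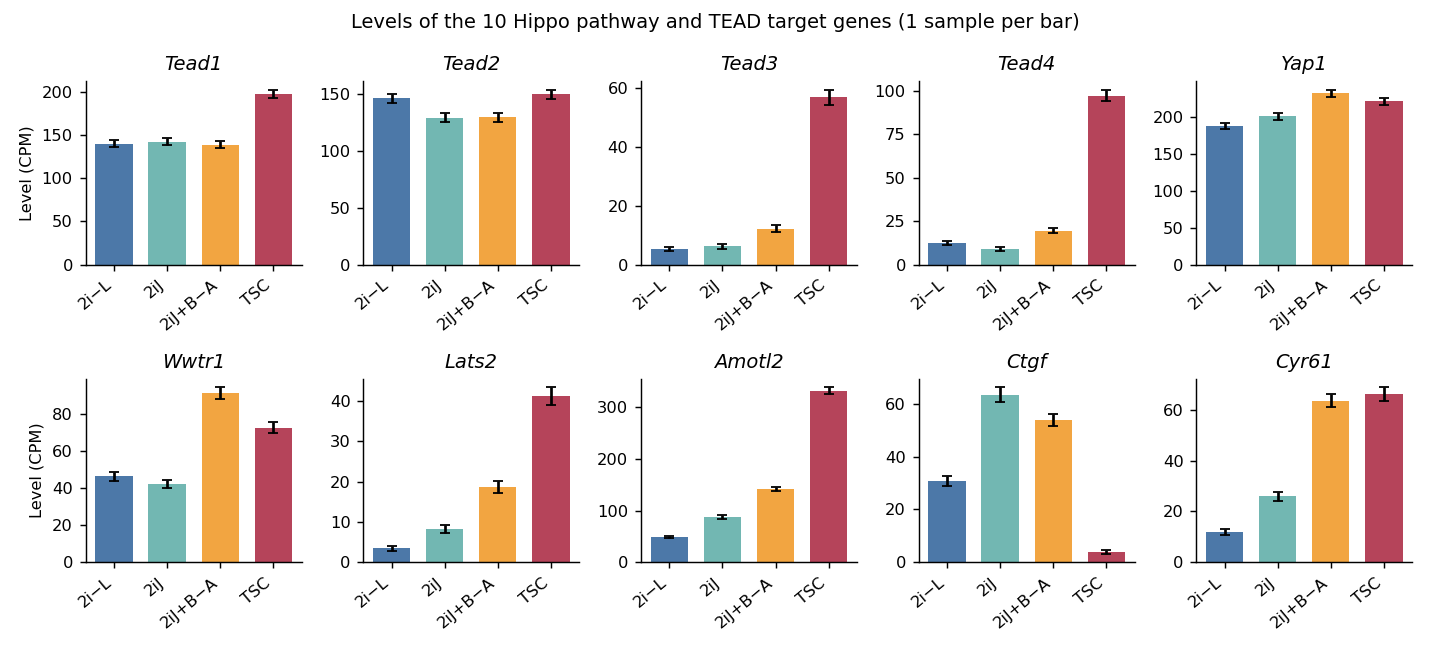
Bars give the level in CPM of each of the 10 genes in 2i−L, 2iJ, 2iJ+B−A and TSCs, with 1 sample per bar and 95% counting intervals as error bars, on axes that start at 0. Tead3, Tead4, Lats2 and Amotl2 are highest in TSCs, Ctgf is lowest there at 3.85 CPM, and Cyr61 has about the same height in 2iJ+B−A and TSCs.

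The comparisons were then set beside the rest of the genome. A gene was counted as higher or lower when its log2 ratio was at least 1 in size, with 0.5 CPM added to both levels. The first comparison asked what the JAK inhibitor added to 2i without LIF. For 2iJ against 2i−L, 3 of the 10 genes were higher (Lats2, Ctgf and Cyr61), where 1.23% of all genes tested were, and 0 were lower, where 0.918% were. All 3 are target genes, and the other target gene, Amotl2, had a log2 ratio of 0.83. The 6 TEAD factors and coactivators were all within the fold, between -0.44 and 0.24. The median over the 10 genes was 0.17, against 0.00 over all genes tested. The counting intervals of the 3 higher genes all reached below 1, so that 0 of them passed with the whole interval beyond the fold.

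The second comparison asked what BMP4 and the ALK5 inhibitor added to 2iJ. For 2iJ+B−A against 2iJ, 4 of the 10 genes were higher (Tead4, Wwtr1, Lats2 and Cyr61), where 5.81% of all genes were, and 0 were lower, where 3.17% were. The median was 0.80, against 0.00 over all genes. Of the higher genes, Wwtr1 and Cyr61 had their whole interval beyond 1, and Tead4 and Lats2 did not. With 2i−L as the reference 4 genes were again higher, where 1131 of the 14263 genes tested were. Tead4 at 0.65 (0.48 to 0.83) and Wwtr1 at 0.97 (0.88 to 1.06) were no longer among the 4, and Tead3 and Amotl2 were.

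TSCs were compared with 2iJ, the mESC culture that served as the study's reference. In TSCs 5 of the 10 genes were higher (Tead3, Tead4, Lats2, Amotl2 and Cyr61), where 19.4% of all genes were, and 1 was lower (Ctgf), where 17.6% were. The median was 1.05, against 0.00 over all genes. All 6 had their whole interval beyond 1, and the same 6 were called against 2i−L, where Ctgf had a log2 ratio of -2.85 (-3.08 to -2.61). Against 2i−L, 2769 of the 14263 genes tested were higher and 2477 lower.

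Against 2iJ+B−A, the mESC culture with the highest Cdx2 level, TSCs had 4 of the 10 genes higher (Tead3, Tead4, Lats2 and Amotl2), where 16.4% of all genes were, and 1 lower (Ctgf), where 16.2% were. The Lats2 interval reached just below 1, and the other 4 lay beyond it. Cyr61 was the one gene that was called against 2iJ and not against 2iJ+B−A. The median was 0.36, against 0.00 over all genes. Tead1, Tead2 and Yap1 were called in none of the 4 comparisons, which share samples. In TSCs against 2iJ alone, 8979 of the 14263 genes tested were within the fold.

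**Figure D3:**
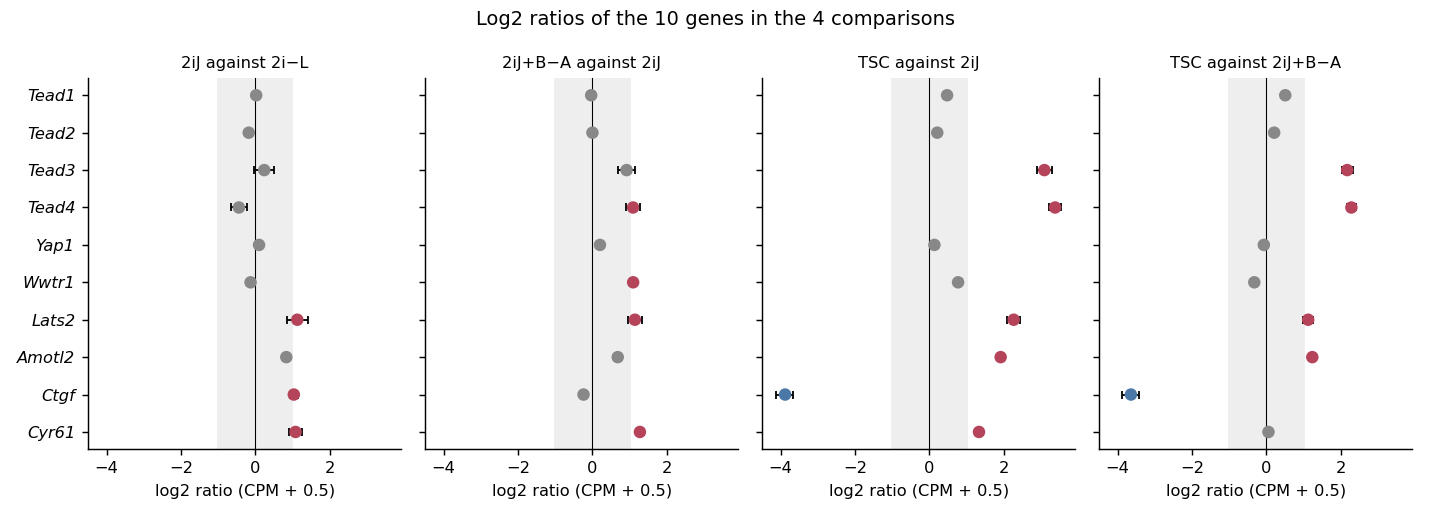
Points give the log2 ratio (of CPM plus 0.5) of each of the 10 genes in the 4 comparisons, with 95% counting intervals; red points are called higher, blue lower and grey neither, and the grey band is the range from -1 to 1. Ctgf is on the left in both TSC comparisons, at -3.88 and -3.64, while Tead3 and Tead4 are on the far right.

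Cdx2 and Gata3, trophectoderm genes downstream of Tead4, were read beside it. Cdx2 was at 2.62, 6.70, 33.6 and 45.1 CPM in 2i−L, 2iJ, 2iJ+B−A and TSCs, and Gata3 at 2.68, 7.43, 19.1 and 104 CPM. Both were 1.21 or more above 2i−L in 2iJ on the log2 scale, whereas Tead4 was lower there. From 2iJ to 2iJ+B−A, Cdx2 was 5.02-fold higher (log2 ratio 2.24) against 2.20-fold for Tead4. Gata3 had a log2 ratio of 1.31.

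The core kinase cassette was read next. The kinases Stk3, Stk4 and Lats1, the scaffold Sav1 and the kinase partners Mob1a and Mob1b gave 0 of 6 calls in each of the 4 comparisons. Over all genes, 1.23% were higher and 0.918% lower in 2iJ against 2i−L, and 5.81% and 3.17% in 2iJ+B−A against 2iJ. In both, a count of 0 of 6 is near the background. The shares were 19.4% and 17.6% in TSCs against 2iJ, and 16.4% and 16.2% in TSCs against 2iJ+B−A. Whether a count of 0 of 6 differs from these shares was not tested. The log2 ratios of TSCs to 2iJ ran from -0.13 for Stk4 to 0.81 for Stk3, with Lats1 at 0.58. In 2iJ+B−A against 2iJ they ran from -0.15 for Stk4 to 0.32 for Mob1a. Lats1 went from 35.4 CPM (2iJ) to 53.2 CPM (TSCs), whereas its homolog Lats2, the feedback kinase, was 5.05-fold higher in TSCs.

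Among 16 upstream regulators, 0 were past the fold in 2iJ against 2i−L, which is near the background of 1.23% higher and 0.918% lower. In 2iJ+B−A against 2iJ, 1 was higher and 1 lower, which is near the background of 5.81% higher and 3.17% lower. The higher one was the atypical cadherin Fat4 (1.06), at 0.120, 0.379, 1.33 and 0.228 CPM over the 4 samples. Fat4 reached 1 CPM in 2iJ+B−A alone, so its call rests on the filter as well. The lower one was the kinase Taok3 (-1.42). In TSCs against 2iJ, 2 were higher and 1 lower, shares that do not exceed the 19.4% and 17.6% of all genes. Wwc1, which encodes the scaffold KIBRA that activates the LATS kinases, stayed between 36.0 and 39.1 CPM over the mESC cultures and reached 327 CPM in TSCs (log2 ratio 3.13, 3.05 to 3.22). The angiomotin gene Amotl1 had a log2 ratio of 1.56. The LIM protein gene Ajuba, whose product restrains LATS, was lower, with -1.63, at 112, 172, 165 and 55.4 CPM. Amot, the angiomotin of the early embryo, was just under the fold in both, at 27.8, 49.7, 91.1 and 94.7 CPM.

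The VGLL proteins bind TEAD factors at the surface that YAP and TAZ use. Of the 4 genes, 3 passed the filter, and Vgll2 had at most 1 count in any sample. Vgll1 was at 0.481, 0.670, 9.48 and 2.14 CPM, so its highest value was in 2iJ+B−A. That value was 14.1-fold above 2iJ with nothing added, and the log2 ratio with 0.5 CPM added was 3.09 (2.70 to 3.46). Vgll4 was at 7.04, 9.90, 18.8 and 35.5 CPM, and had a log2 ratio of 1.79 in TSCs against 2iJ. Vgll3 was at 7.67, 12.7, 25.5 and 6.21 CPM and was, like Wwtr1 and Vgll1, highest in 2iJ+B−A, with ratios within the fold in both comparisons with 2iJ (0.98 and -0.98).

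A further 17 genes known as YAP or TAZ targets were read. In 2iJ against 2i−L, 1 was higher and 0 were lower, where 1.23% and 0.918% of all genes were. In 2iJ+B−A against 2iJ, 3 were higher and 1 lower, where 5.81% and 3.17% of all genes were, with a median of 0.17. The higher ones were Rbms3 (1.29), Ankrd1 (1.22) and Foxf2, each at 3.06 CPM or less. All 3 reached 1 CPM in 2iJ+B−A alone, so their count rests on the filter and is not a result about the list. The lower one was Igfbp3 (-1.65), a binding protein of insulin-like growth factors. In TSCs against 2iJ, 4 were higher and 5 lower, where 19.4% and 17.6% of all genes were, with a median of 0.28. Crim1, which encodes a membrane protein that binds BMPs, took the same order as Lats2 and Amotl2, at 3.64, 8.47, 16.6 and 57.4 CPM (log2 ratio 2.69 in TSCs against 2iJ). The receptor kinase gene Axl was, like Ctgf, lowest in TSCs, at 10.7, 10.7, 12.1 and 0.114 CPM (-4.19), and so was the growth factor gene Tgfb2, at 7.76, 13.0, 26.4 and 0.826 CPM (-3.35). Ccdc80 was also lower in TSCs (-2.13), and Rbms3 had 0 counts there, which makes it at least 11.2-fold lower than in 2iJ, with 3 counts in the TSC library as the floor.

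**Figure D4:**
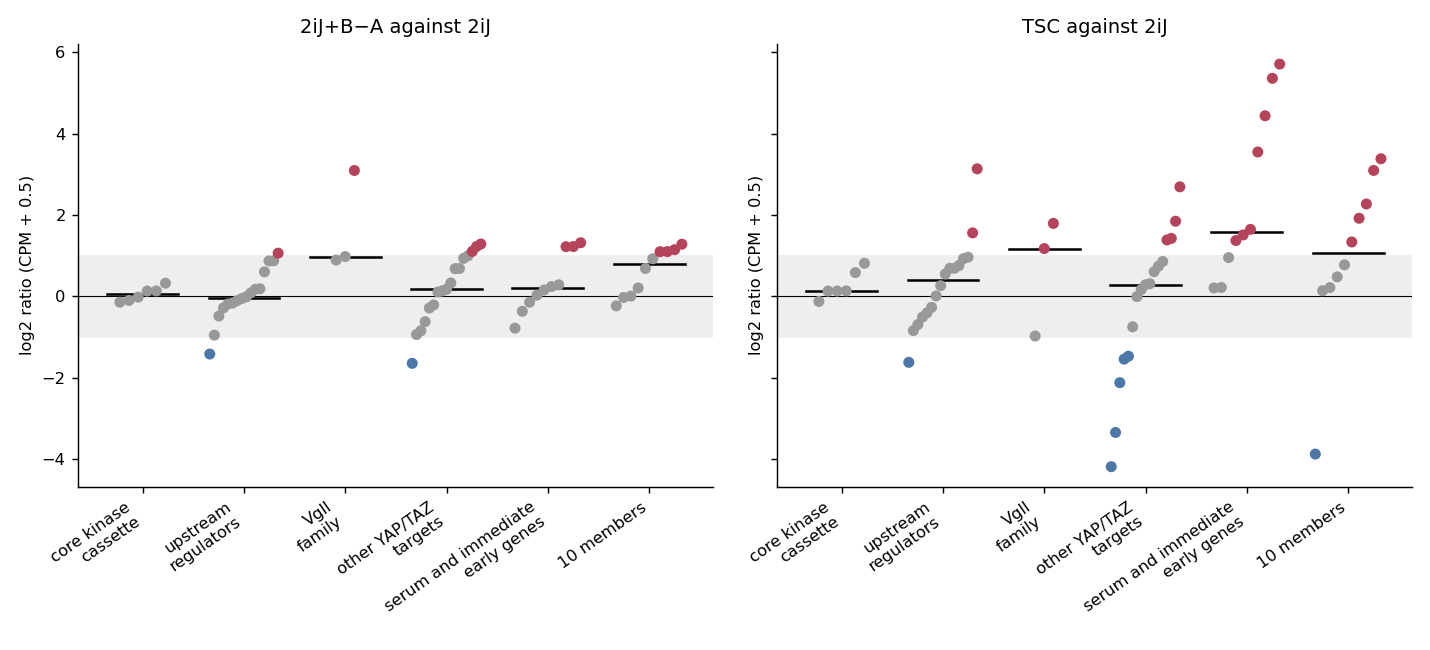
Points give each gene's log2 ratio (of CPM plus 0.5) in 2iJ+B−A against 2iJ on the left and TSCs against 2iJ on the right, grouped by list; red points are called higher and blue lower, black lines are list medians, and the grey band is the range from -1 to 1. The core kinase cassette, listed without Lats2, lies within the band in both panels. The YAP/TAZ targets spread from -4.19 to 2.69 in TSCs against 2iJ.

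Ctgf and Cyr61 also respond to serum through SRF, and 10 serum and immediate early genes were read for that reason. In 2iJ against 2i−L, 0 of the 10 were past the fold, which is near the background of 1.23% higher and 0.918% lower. In 2iJ+B−A against 2iJ, 3 were higher (Atf3 1.31, Junb 1.22 and Fos 1.22) and 0 lower, where 5.81% and 3.17% of all genes were. In TSCs against 2iJ, 7 were higher and 0 lower, where 19.4% and 17.6% of all genes were, led by Egr1 (5.71) and Fos (5.36), which went from 0.903 and 1.02 CPM in 2iJ to 72.8 and 61.8 CPM in TSCs. Egr1, Fosb and Fosl1 reached 1 CPM in TSCs alone, so the count of 7 rests in part on the filter. The MEK inhibitor was in all 3 mESC media. The part of serum, SRF or the MEK inhibitor in the levels of Ctgf and Cyr61 was not tested.

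The genes whose pattern over the 4 samples was most like that of Tead4 and of Ctgf were found among 3951 genes with at least 10 CPM in some sample, by the distance between log2 levels centred on each gene's mean. Nearest to Tead4 were AI481877 (distance 0.11), Tcfeb (0.16), which encodes a lysosomal transcription factor, and the chemokine gene Cxcl14 (0.18). Tcfeb was at 8.36, 5.45, 14.0 and 62.2 CPM in 2i−L, 2iJ, 2iJ+B−A and TSCs. Nearest to Ctgf were Lef1 (0.40), a transcription factor of the Wnt pathway, Hmcn1 (0.41) and Lpar6 (0.43), a receptor for lysophosphatidic acid. Lef1 was at 8.51, 12.5, 12.9 and 0.427 CPM. With 4 samples the distances are a description of these libraries only.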

How the data were processed

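Poly-A RNA libraries (NEBNext Ultra Directional) from 4 cultures were sequenced as read pairs of 126 bases. The authors trimmed reads with cutadapt through TrimGalore, mapped them with STAR 2.4.2a to NCBIM37 with Ensembl genes, and deposited raw counts of read pairs per gene, neither normalized nor adjusted for batch. The annotation release is not given in the sources used here. Of the count columns the one for a reverse-stranded library was used (29.1 to 32.1 times the opposite strand). Symbols and exon lengths came from GENCODE vM1. Counts were scaled by TMM factors (edgeR 4.0.16) to CPM, and genes that reached 1 CPM in any sample entered the comparisons as log2 ratios of CPM plus 0.5. No test was possible with 1 sample per group, and exact Clopper-Pearson intervals (95%), or exact Poisson intervals for levels, cover counting error only. PCR copies are not independent molecules. The longest protein-coding transcript of each of the 10 genes, the only one searched, had no match elsewhere in NCBIM37 (minimap2). In each further list the genes named were, at most, the 4 largest log2 ratios of TSCs against 2iJ and the 3 largest of 2iJ+B−A against 2iJ; other names were chosen after their values were seen. The 10 genes and the lists were chosen with earlier results of these data known. The scripts were tested on simulated counts. Alternatives were DESeq2 size factors (version 1.42.0), raw totals, other filters, pseudocounts and folds, the unstranded count, other lengths and 2i−L as the reference.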

Additional observations from a re-analysis of the deposited data

How the results depend on the processing

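No paired analysis was possible because each group has 1 sample, and for the same reason no replicate could be left out. DESeq2 size factors, raw totals, no filter or a filter of 5 CPM, 0.1 or 1 CPM added and the unstranded count left every call of the 10 genes in the 4 comparisons in place. The fold threshold did not. At 3-fold, 0 genes were called in 2iJ against 2i−L, 0 in 2iJ+B−A against 2iJ and 3 in TSCs against 2iJ+B−A (Lats2 and Amotl2 lost), and TSCs against 2iJ lost Cyr61. Of the 14263 genes tested, 35, 433, 2673 and 3094 were called at 3-fold in these comparisons, in the order named. With the whole interval beyond 1 the first comparison had 0 and the second 2, and Lats2 was lost in TSCs against 2iJ+B−A. All genes tested gave 92, 764 and 3707 calls there. At 1.5-fold 4 calls were gained, Amotl2 in the first comparison, Tead3 and Amotl2 in the second and Wwtr1 in TSCs against 2iJ. At that fold all genes tested gave 1325, 2944 and 8040 calls in these comparisons. With 0.1 CPM added, 1 upstream regulator, 2 other YAP/TAZ targets and 1 immediate early gene were called in 2iJ against 2i−L. Over all genes tested that setting gave 652 calls, against 306 with 0.5 CPM added. With 2i−L as the reference, 4 of 16 upstream regulators and all 3 Vgll genes that passed the filter were called in 2iJ+B−A. Of the 14263 genes tested, 1131 were higher and 645 lower there. In TSCs against 2i−L, 7 of the 16 upstream regulators were called, 6 higher and 1 lower. There 2769 of all genes tested were higher and 2477 lower. The cause of these changes was not tested. With longest transcripts, Tead3 and Tead4 made up 8.79% of TEAD transcripts in 2i−L, 16.0% in 2iJ+B−A and 43.0% in TSCs, and with the shortened Tead1 length 8.38%, 7.66%, 15.0% and 40.5% in 2i−L, 2iJ, 2iJ+B−A and TSCs. The Yap1 to Wwtr1 ratio in that order was 1.94, 2.28, 1.21 and 1.46 with the unstranded count and 3.58, 4.20, 2.25 and 2.69 with longest transcripts. Depth did not limit the 10 genes, but Fat4, Ankrd1, Rbms3, Foxf2, Vgll1 and Vgll2 rest on few counts.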
